A study of Mus musculus with 24 samples.

Results

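Tagged-ribosome RNA from the developing mouse cochlea was collected in 2 experiments, and the TRAP libraries of experiment 2 were compared with those of experiment 1. The labels assign 16 of the 24 libraries of the series to TRAP, 8 in each experiment, and they give the experiment as a batch. Translating ribosome affinity purification (TRAP) uses an antibody against GFP to pull down ribosomes carrying eGFP-tagged L10a, together with the RNA bound to them. The tag was restricted to the Fgf20-Cre lineage, and 3 to 7 embryos sharing a genotype were pooled for each library. In each experiment 4 TRAP libraries came from Fgf20+/- embryos (het) and 4 from Fgf20-/- embryos (mut). All embryos were at embryonic day 14.5 and of the strain written C57BL/6J x 129X1/SvJ, and the dissected tissue was the ventral otocyst. Another 8 libraries, called pre-TRAP, were read as RNA from before the purification, with 2 het and 2 mut libraries in each experiment. What set the experiments apart, such as a day, a litter or a sequencing run, cannot be told apart from the sources at hand. The question was whether maturation, dissection or purification differed between them.

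At this stage the floor of the cochlear duct holds the prosensory domain, whose cells leave the cell cycle and go on to form hair cells and supporting cells. FGF20 is a ligand made there, and Notch signalling sorts the hair cell fate from the supporting cell fate. Around the duct lie the spiral ganglion, periotic mesenchyme and the cartilage of the otic capsule, which can enter a dissection in varying amounts. RNA outside the tagged lineage should be depleted by the pull-down, so a change in its depletion would bear on the purification.

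The 2 experiments lay mostly apart along the main axis of variation in TRAP, with overlap. Over 14637 genes with a mean of at least 2 CPM (counts per 1e+06 counts), principal component 1 carried 44.3% of the variance. Libraries of experiment 1 scored -51.3 to 0.564 on it and those of experiment 2 scored 20.8 to 54.1, except library 4 at 1.37 and library 3 at -9.27. Total counts per TRAP library ran from 3.09e+07 to 5.03e+07 in experiment 1 and from 3.07e+07 to 4.04e+07 in experiment 2, so that depth overlapped. Libraries 3 and 4 of experiment 2 and libraries 5 and 6 of experiment 1 had the highest cartilage levels among TRAP libraries, and the TRAP counts of called genes were also computed without them. Y-linked RNA was far lower in library 12 of experiment 1 and library 1 of experiment 2 than in the others, so that the sex ratio of the pools varied within both experiments.

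More genes were detected in experiment 2 and its counts were spread more evenly over them. At the depth of the shallowest library, 25722 to 29232 genes were expected to be detected in a TRAP library of experiment 1 and 29452 to 30148 in one of experiment 2. These ranges did not overlap. As counted, TRAP libraries of experiment 2 held 2766 more genes on average (exact permutation test within genotype, two-sided, adjusted p = 0.00327 over 8 measures). The 10 most counted genes took 5.6% to 8.01% of the counts in experiment 1 and 4.77% to 6.13% in experiment 2 (exact permutation test, adjusted p = 0.00327). The pre-TRAP libraries moved the same way, with 28393 to 28845 genes at equal depth in experiment 1 and 30975 to 32131 in experiment 2. With 4 libraries against 4 in 2 genotypes, the smallest p that test could give in pre-TRAP was 0.0556.

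**Figure D1:**
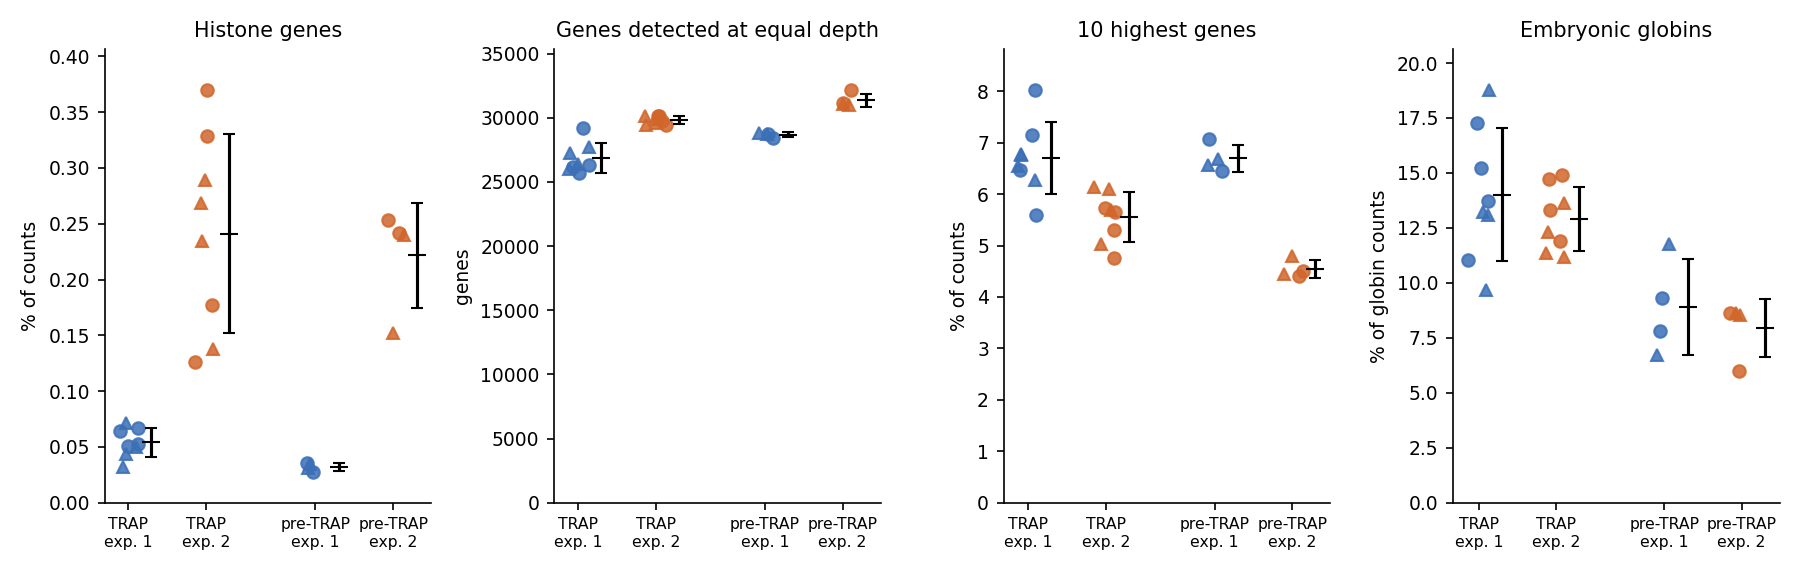
Library measures by method and experiment: the share of counts in histone genes, the genes expected at the depth of the shallowest library, the share of the 10 most counted genes and the share of embryonic globins among globin counts (y axes in percent or genes). Circles are het and triangles mut libraries, and bars give the mean and SD. The histone shares of the 2 experiments do not overlap in either method, while the embryonic globin shares do.

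In TRAP, 3051 of 21577 tested genes were higher in experiment 2 (14.1%) and 1901 were lower (8.81%), by edgeR's quasi-likelihood test with genotype as a covariate and a Benjamini-Hochberg adjusted p under 0.05. The median log2 change of all tested genes was 0.02. Without libraries 3, 4, 5 and 6, 3237 genes were higher and 2154 lower. In het libraries alone 1012 were higher and 162 lower, and in mut libraries alone 2206 were higher and 897 lower. In pre-TRAP, 2139 of 21954 tested genes were higher in experiment 2 (9.74%) and 1092 were lower (4.97%), and the count of lower genes ranged from 479 to 1748 as each library was left out in turn. Nothing in the labels says that the libraries of a group came from separate litters, so p-values measure the spread between these pools.

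Histone genes were called higher more often than any other of the 40 lists. Replication-dependent histones are made in S phase to package new DNA, and most of their mRNAs end in a stem-loop in place of a polyA tail. Of 61 tested in TRAP, 34 were higher and 2 lower in experiment 2, against 14.1% and 8.81% of all genes, with a median log2 change of 0.86. Their share of all TRAP counts was 0.032% to 0.0717% in experiment 1 and 0.126% to 0.369% in experiment 2. The groups did not overlap, and the mean share was 4.46 times higher in experiment 2 (exact permutation test, adjusted p = 0.00327). In pre-TRAP the share was 0.0276% to 0.0354% in experiment 1 and 0.152% to 0.253% in experiment 2, again with no overlap.

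The families of histone moved by very different amounts. Genes of H2A, a core histone, were called higher for 14 of 16 tested, with a median log2 change of 4.20. Their summed TRAP level was 24.1 CPM at the lowest, 65.9 at the median and 280.3 at the highest in experiment 1, and 611 CPM, 1611 and 2651 in experiment 2. All 10 tested genes of H3, another core histone, were called higher, with a median of 2.39 and changes from 1.35 to 2.47. Of the H4 genes 6 of 13 passed, with a median of 0.53. Of the H2B genes 3 of 17 passed, near the 14.1% of all tested genes called higher, with a median of 0.37. Linker histones of the H1 family went both ways. Hist1h1c was higher by a log2 change of 0.66 ± 0.19 (SE, edgeR adjusted p = 0.0158), while Hist1h1a and Hist1h1b fell. Many of these genes are near-identical copies in clusters, so the counts of single copies are uncertain. Summed over each family, TRAP levels were apart between the experiments for H2A and for H3 (2.44 to 24.2 CPM and 37.5 to 85.04 CPM). They overlapped for H4 (133 to 392 CPM and 244 to 439 CPM), H2B (109 to 191 and 142 to 305) and H1 (35.0 to 71.5 and 47.1 to 74.9). In pre-TRAP 15 of 16 H2A, 10 of 10 H3 and 0 of 13 H4 genes were called higher, against 9.74% of all genes.

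**Figure D2:**
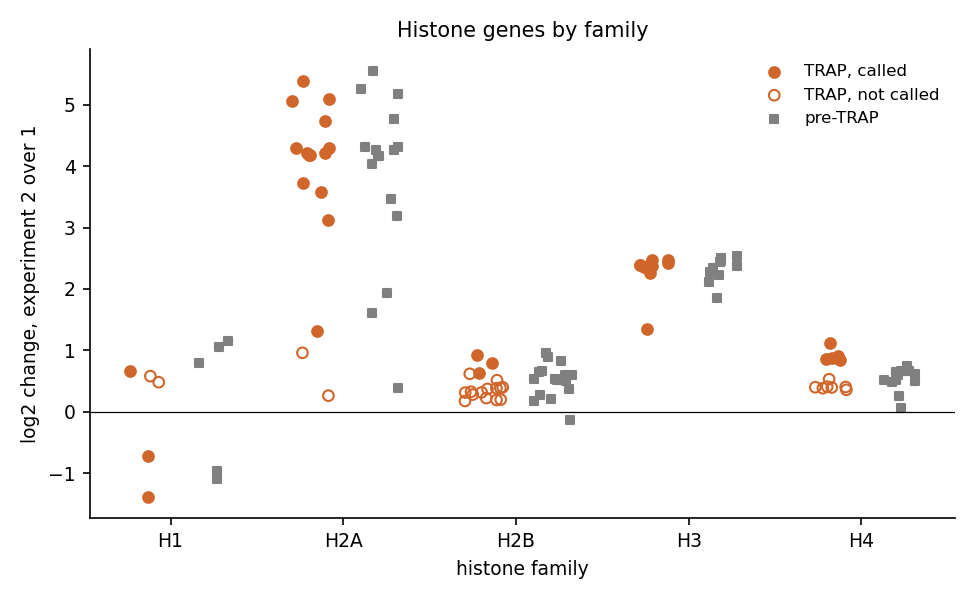
Log2 change between experiments (y axis) of each tested histone gene, by family (x axis), in TRAP (circles, filled where called) and pre-TRAP (squares). H2A genes reach a log2 change of 5.39 and H3 genes lie between 1.35 and 2.47 in TRAP, and the pre-TRAP values of H2A reach 5.56.

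Hist1h2ap, an H2A gene, had the largest change of the list. Its TRAP level was 0.381 CPM at the lowest, 2.03 at the median and 19.0 at the highest in experiment 1, and 61.5 CPM, 233 and 341 in experiment 2. The groups did not overlap, although libraries within experiment 1 themselves spread widely, and the log2 change was 5.39 ± 0.70 (SE, edgeR adjusted p = 6.9e-06). Hist1h2ag went from 0.34 to 15.1 CPM in experiment 1 to 35.9 to 196 CPM in experiment 2, a log2 change of 5.09 ± 0.71. Hist1h2ao (5.07), Hist1h2ac (4.73) and Hist1h2ah (4.30) had log2 changes of like size, all with groups that did not overlap. Hist1h1a, a linker histone, showed the reverse. It was at 5.19 to 13.2 CPM in experiment 1 and 1.5 to 4.97 CPM in experiment 2, a log2 change of -1.38 ± 0.23 (SE, edgeR adjusted p = 0.000127), also without overlap.

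The promoters of a risen and a fallen histone gene are shown because the genes, of H2A and of H1, moved in opposite directions and lie on the same chromosome. Each sequence gives the 250 bases before the transcription start, 5′ to 3′ on the gene's strand, from RefSeq on GRCm38.p6. Capitals mark matches to CCAAT or TATAAA on either strand. The window of Hist1h2ag (RefSeq symbol H2ac11) lies at chr13:22042950-22043199 on the minus strand, and that of Hist1h1a (H1f1) at chr13:23763418-23763667 on the plus strand.
Hist1h2ag: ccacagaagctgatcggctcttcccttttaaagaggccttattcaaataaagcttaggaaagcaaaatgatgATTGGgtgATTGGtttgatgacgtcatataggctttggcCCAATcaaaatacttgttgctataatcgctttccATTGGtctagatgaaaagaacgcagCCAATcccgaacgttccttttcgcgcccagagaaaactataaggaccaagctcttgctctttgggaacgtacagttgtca
Hist1h1a: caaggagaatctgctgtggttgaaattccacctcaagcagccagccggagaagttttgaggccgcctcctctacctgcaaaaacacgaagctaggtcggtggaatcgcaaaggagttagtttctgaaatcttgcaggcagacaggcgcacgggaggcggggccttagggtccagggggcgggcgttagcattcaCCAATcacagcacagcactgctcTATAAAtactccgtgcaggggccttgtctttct
The Hist1h2ag window held 5 matches to CCAAT and 0 to TATAAA, and the Hist1h1a window held 1 of each. CCAAT was found in 25 of the 30 called-higher histone genes with a RefSeq window (83.3%) and in 18 of the other 23 (78.3%), against 33.8% of all 32851 RefSeq windows. TATAAA was found in 13 of the 30 (43.3%) and in 14 of the 23 (60.9%), against 12.4% of all windows. A match of these letters is a description of the sequence only.

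Genes that mark S phase by other means showed no rise as a list. Of 13 S phase genes, among them the Mcm helicase subunits and Pcna, 0 were higher (against 14.1% of all genes). In this list 1 was lower (7.69%, against 8.81% of all genes), and the median log2 change was -0.23. The fall was Tyms, which makes thymidylate for DNA synthesis, with a log2 change of -0.44 ± 0.11 (SE, edgeR adjusted p = 0.00502). Of 17 genes of mitosis, Cdc20 was higher (0.29) and Cdk1 lower (-0.43) on the log2 scale, 5.88% each way. The other 15 did not pass. Mki67, a proliferation marker, was at 19.8 to 73.4 CPM in experiment 1 and 13.2 to 51.0 CPM in experiment 2.

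A set of genes was close to absent in experiment 1 and present in every TRAP library of experiment 2. Counting genes with at most 5 counts in each library of the lower experiment and at least 20 in each of the higher, there were 49 such genes in this direction and 0 in the other. Of the 49, RefSeq classes 6 as protein-coding and 18 as pseudogenes, and 19 had no class. In 45 of the 49 the pre-TRAP libraries of experiment 2 also all exceeded those of experiment 1. The 49 were chosen for a large gap between the same 2 experiments, and no share over all genes was set beside this count.

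The named rises outside the histones were genes of unrelated tissues. Fga, the alpha chain of fibrinogen made in liver, was at 0.177 to 0.616 CPM and then 14.2 to 20.7 CPM, a log2 change of 5.84 ± 0.21 (SE, edgeR adjusted p = 1.86e-13). Grin1, the obligatory subunit of NMDA receptors, was at 0.0247 to 0.43 CPM and then 6.71 to 14.3 CPM, a log2 change of 5.70 ± 0.33. In both of these the 8 libraries of experiment 2 lay far above the 8 of experiment 1, in both genotypes.

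Fstl3, a secreted activin antagonist, rose by 5.29 ± 0.38 on the log2 scale and Piwil2, a piRNA-binding protein of the germ line, by 5.19 ± 0.26. Slc22a19, an organic anion transporter, rose by 4.49 ± 0.33. Their groups did not overlap. The named rises were all called higher in pre-TRAP too, where Grin1 (6.09) and Fga (5.18) had the log2 changes given in brackets. Of all TRAP rises tested in both methods 60.1% were called higher in pre-TRAP, and the named ones were chosen for large changes in TRAP.

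Dct, a melanin synthesis enzyme and melanocyte marker, was at 0.508 CPM at the lowest, 1.15 at the median and 2.93 at the highest in experiment 1, and at 29.3 CPM, 48.3 and 67.4 in experiment 2. No library of either experiment came near the other, and the log2 change was 5.00 ± 0.34 (SE, edgeR adjusted p = 2.56e-09). In pre-TRAP it went from 9.71 to 12.8 CPM to 281 to 458 CPM. The other 3 tested melanocyte genes did not pass. Pmel had a log2 change of -0.27, Mitf of -0.14 and Kit of 0.46 ± 0.25 in TRAP, and of Tyrp1, Tyr and Mlana none exceeded 0.406 CPM in any TRAP library. Dct was the 1 gene called of 4 tested in that list (25%, against 14.1% of all genes called higher).

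Single markers also stood out in other lists. Hmx3, a vestibular transcription factor, was at 0 to 0.202 CPM in experiment 1 and 0.562 to 1.08 CPM in experiment 2 (log2 change 3.33 ± 0.40 SE, edgeR adjusted p = 2.82e-06), and its neighbour in function Hmx2 rose by 0.63. Sp7, the osteoblast transcription factor osterix, was at 0.0247 to 0.86 CPM and then 2.33 to 3.48 CPM (log2 change 3.06 ± 0.46), while Spp1, a bone matrix protein, fell by 0.52. Ptprc, the leukocyte antigen CD45, was at 0.0247 to 0.438 CPM and then 0.486 to 2.13 CPM (log2 change 2.54 ± 0.44). Of 12 macrophage genes, C1qc was the other 1 that passed, so that 2 were higher (16.7%, against 14.1% of all genes).

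**Figure D3:**
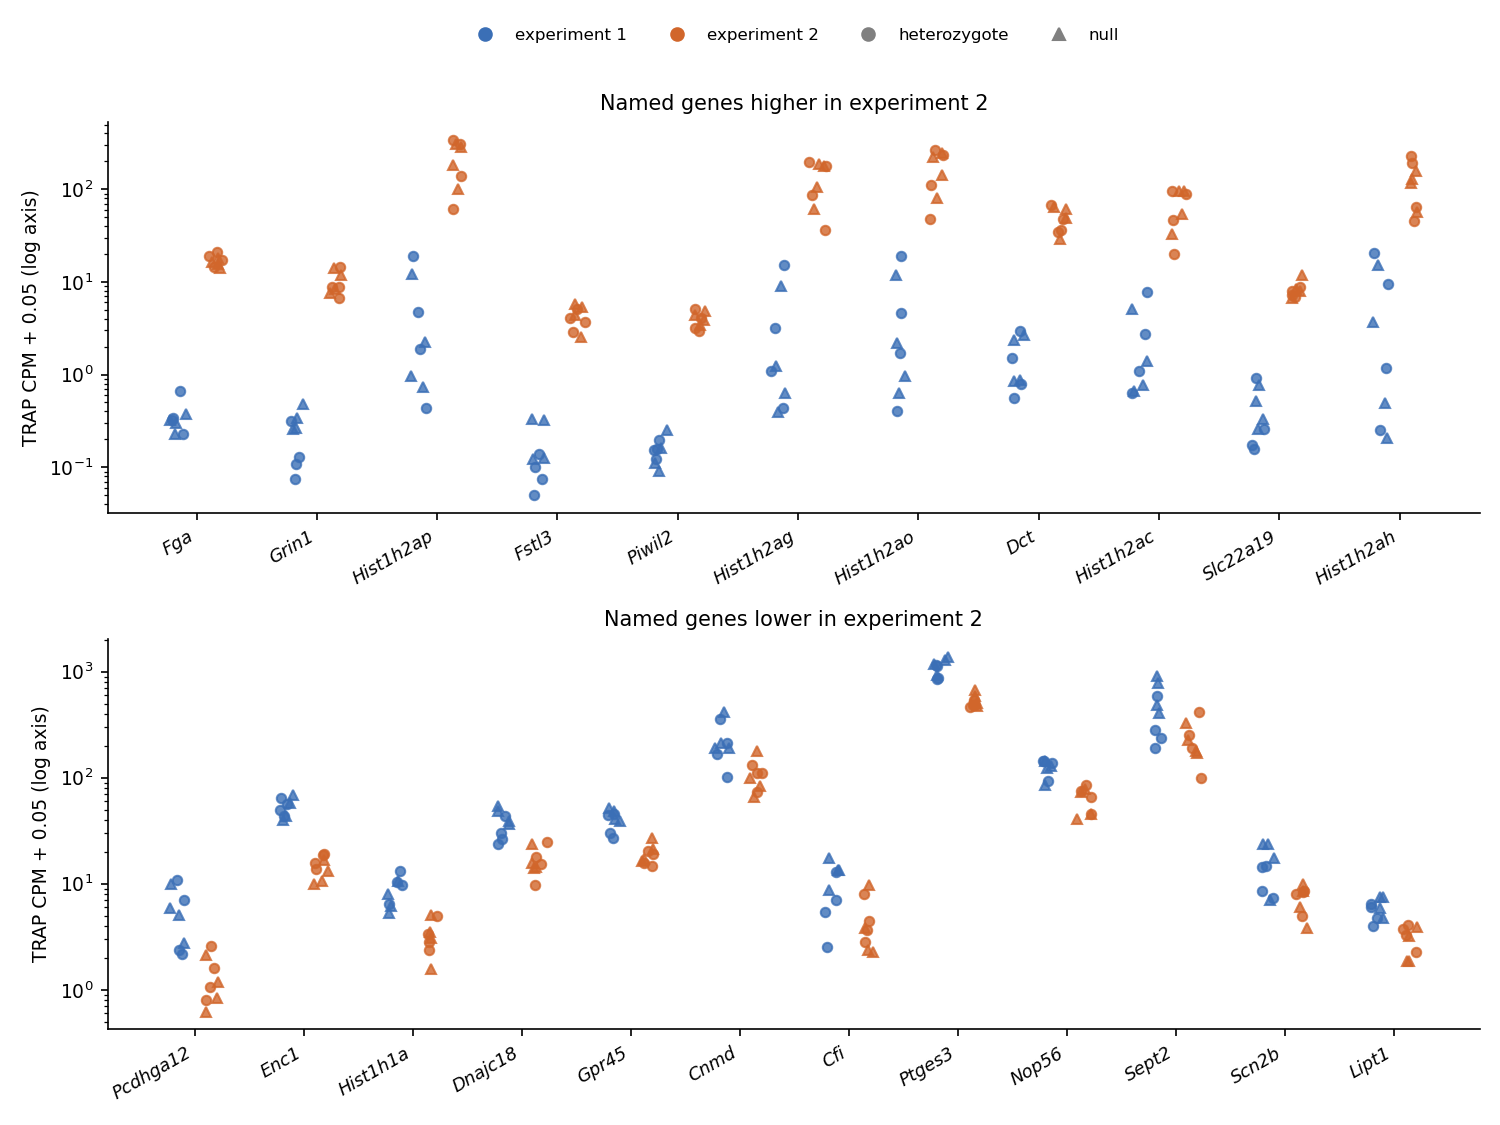
TRAP level of the named rises (upper panel) and the 12 named falls (lower panel) in every library, in CPM plus 0.05 on a log axis. Blue points are experiment 1 and orange points experiment 2, circles het and triangles mut. The groups are apart for every rise shown and for 4 of the 12 falls. These genes were chosen for large changes between the same groups, which favours groups that are apart.

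The falls were smaller and lay in more abundant genes. Enc1, an actin-binding protein of neuroectoderm, was at 40.2 CPM at the lowest, 52.8 at the median and 68.8 at the highest in experiment 1, and at 9.94 CPM, 14.8 and 19.1 in experiment 2. The groups did not overlap, and the log2 change was -1.86 ± 0.15 (SE, edgeR adjusted p = 2.47e-08). Ptges3, the Hsp90 co-chaperone p23, was at 850 to 1390 CPM and then 460 to 669 CPM, a log2 change of -1.06 ± 0.11. Gpr45, an orphan receptor, was at 27.2 to 51.6 CPM and then 14.7 to 27.1 CPM, a log2 change of -1.11 ± 0.14. With Hist1h1a these were the 4 named falls whose groups were apart, among genes chosen for large changes between the same groups.

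Pcdhga12, a clustered protocadherin, fell by 2.13 on the log2 scale in TRAP and had a log2 change of 0.93 in pre-TRAP (adjusted p = 0.0625). The difference between these had an adjusted p of 0.0664 in edgeR. Dnajc18, a J-domain protein, fell by 1.13 and Nop56, a core protein of box C/D snoRNPs, fell by 0.98. Cnmd, the cartilage factor chondromodulin, fell by 1.11, with 102 to 420 CPM in experiment 1 and 65.4 to 178 CPM in experiment 2. Scn2b, a sodium channel subunit, fell by 0.97 and Lipt1, a lipoyltransferase, by 0.96. Cfi, complement factor I, and Sept2, a septin, fell by 1.06 and 0.97. The call of Cfi was lost without library 1, 2, 6, 8, 10, 12 or 14 and that of Sept2 without library 2, 8 or 12. In het libraries alone Dnajc18, Cnmd, Cfi, Sept2, Scn2b and Lipt1 did not pass. Of the 12 named falls 9 were also called lower in pre-TRAP, against 4.97% of all genes and 34.2% of the TRAP falls tested in both methods. The named falls were chosen for large changes in TRAP.

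The direction of change depended on how abundant a gene was. Of 574 protein-coding genes above 200 CPM in TRAP, 29 were higher and 171 lower in experiment 2, with a median log2 change of -0.20. Of 3781 genes between 2 and 10 CPM, 379 were higher and 110 lower, with a median of 0.04. Among the 1281 below 0.5 CPM, 168 were higher and 14 lower. The pre-TRAP libraries showed the same order, with 20 higher and 103 lower of 468 genes above 200 CPM. Called genes were also shorter as genomic spans, with a median of 14.6 kb for the higher, 18.1 kb for the lower and 26.7 kb for the uncalled protein-coding genes in TRAP.

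**Figure D4:**
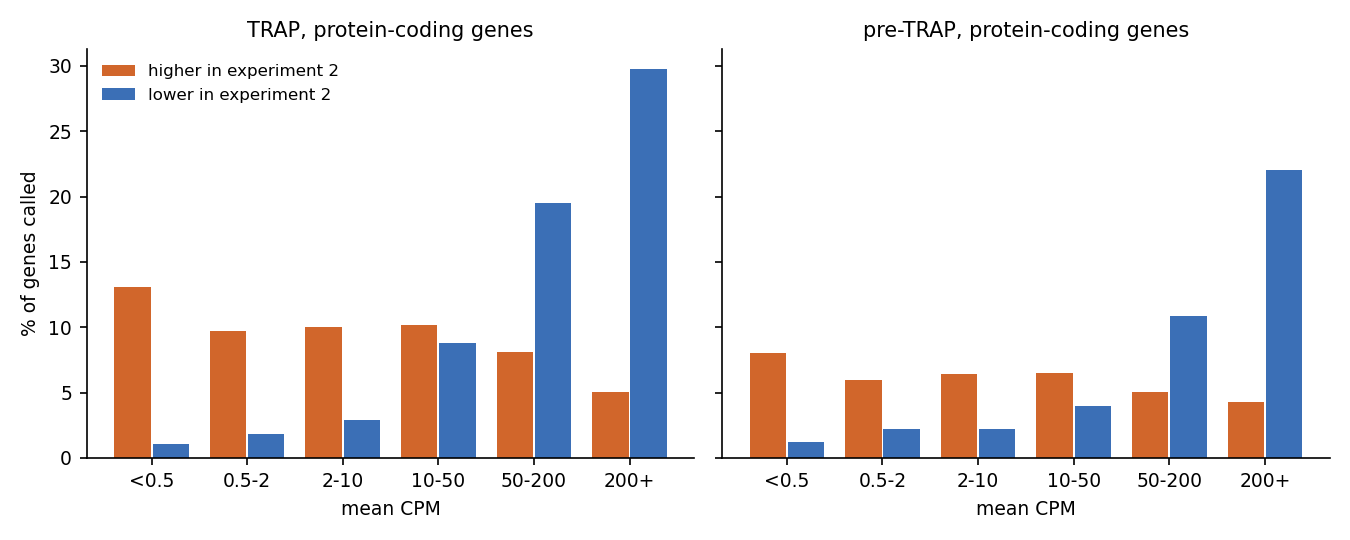
Percent of protein-coding genes called higher (orange) or lower (blue) in experiment 2 (y axis), by mean CPM over the libraries of the method (x axis), in TRAP and pre-TRAP. In TRAP the share called lower climbs from 1.09% below 0.5 CPM to 29.8% above 200 CPM.

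Ribosomal protein genes, which build the particle that TRAP recovers, followed the abundant genes. Of 80 tested, 3 were higher (3.75%) and 27 lower (33.8%, against 8.81% of all genes), with a median log2 change of -0.21, and 17 had a positive change. In pre-TRAP 3 were higher (3.75%, against 9.74% of all genes) and 30 lower (37.5%, against 4.97%). Rpl4 was at 1672 to 2190 CPM in experiment 1 and 801 to 1221 CPM in experiment 2, with no overlap and a log2 change of -0.80 ± 0.10 (SE, edgeR adjusted p = 8.45e-06). Rpl35 (-0.82), Rps19 (-0.79) and Rpl3 (-0.75) had log2 changes of like size. Rps2 went the other way, from 27.8 to 150 CPM to 199 to 273 CPM, a log2 change of 1.40 ± 0.25 (SE, edgeR adjusted p = 0.00029). Rps10 rose by 0.39 on the log2 scale. The list took 6.9% to 9.66% of TRAP counts in experiment 1 and 6.71% to 8.26% in experiment 2 (exact permutation test, adjusted p = 0.153).

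Rpl13 varied widely within experiment 1. It was at 437 CPM in library 5, 709 in library 13 and 1072 in library 6, while the 8 libraries of experiment 2 were at 1868 to 2389 CPM. Its processed copy Rpl13-ps6 was at 303, 529 and 801 CPM in the same 3 libraries, so the gene and the copy were low together. Neither passed the test, with adjusted p of 0.127 and 0.238 in edgeR.

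Copies of genes took many of the calls. Of 3890 genes that RefSeq classes as pseudogenes, 984 were higher (25.3%) and 557 lower (14.3%), against 1432 (9.86%) and 1160 (7.99%) of 14522 protein-coding genes. Of 1789 genes with no RefSeq class, 481 were higher (26.9%) and 104 lower (5.81%). These are shares of each class beside 14.1% and 8.81% of all genes. Reads that fit a gene and its copy can be assigned to either, and how the submitters counted them is not given in the sources used here. Of 256 processed copies of ribosomal protein genes, 45 were higher, 55 lower and 156 not called, and 8 parent genes had copies called in both directions. Rpl3-ps1 fell by 0.81 beside its parent Rpl3, which fell by 0.75. When protein-coding genes were fitted alone, 1456 were higher and 870 lower.

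Measures of developmental age overlapped between the experiments in TRAP. Globin switching, from embryonic to adult chains, proceeds at this stage as red cells from the liver replace those from the yolk sac. Embryonic globins made up 9.7% to 18.8% of globin counts in TRAP libraries of experiment 1 and 11.2% to 14.9% in experiment 2 (exact permutation test, adjusted p = 0.395). Of the 8 early timing genes, RNA-binding proteins and partners that decline as tissues mature, 0 passed in either direction in TRAP. Of all genes 14.1% were higher and 8.81% lower, so few would be looked for among 8 and this count says little. The list had a median log2 change of 0.21, beside 0.02 for all genes, and 5 of the 8 had a positive change. Hmga2, a chromatin protein, was at 213 to 404 CPM in experiment 1 and 186 to 472 CPM in experiment 2, with a log2 change of 0.22 ± 0.17. Lin28b, a repressor of let-7, had a change of 0.32 ± 0.13 and Igf2bp1, an RNA-binding protein, of 0.36 ± 0.15, with adjusted p of 0.096 and 0.0887 in edgeR. In pre-TRAP 2 genes of these lists passed, both lower in experiment 2. The embryonic globin Hba-x had a log2 change of -1.05 (edgeR adjusted p = 0.0027) and Trim71, a partner of Lin28 in early embryos, of -0.93 (edgeR adjusted p = 0.011).

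Of 18 tested hair cell genes 3 were higher (16.7%, against 14.1% of all genes), 0 were lower and 15 were not called, with a median log2 change of 0.20 beside 0.02 for all genes. The rises were Espn, an actin bundler of stereocilia, by 0.84 ± 0.20 (SE, edgeR adjusted p = 0.00467), Cib2, a part of the transduction complex, by 0.89 ± 0.21, and Barhl1, a transcription factor, by 1.12 ± 0.39. Espn was at 1.98 to 6.16 CPM in experiment 1 and 4.62 to 10.5 CPM in experiment 2, with overlap. Atoh1, which starts hair cell fate, was at 3.83 to 6.37 CPM and then 3.84 to 8.63 CPM, a log2 change of 0.26 ± 0.16. Pou4f3, a later hair cell factor, had a log2 change of 0.12 ± 0.20. Neither of these passed.

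Of 11 prosensory genes 1 was called higher (9.09%, against 14.1% of all genes) and 0 lower. It was Lfng, a modifier of Notch, which rose by 0.96 ± 0.26. Sox2, which defines the domain, was at 30.8 to 74.1 CPM in experiment 1 and 31.1 to 90.8 CPM in experiment 2. Of 8 supporting cell genes 1 was called lower (12.5%, against 8.81% of all genes) and 0 higher. It was the gap junction gene Gjb6, which fell by 0.68 ± 0.20. In the Kolliker organ and membrane list of 9 genes, Fgf10 and Calb1 rose by 0.47 and 0.41 (22.2%, against 14.1% of all genes). The proteoglycan Epyc fell by 0.77 (11.1%, against 8.81% of all genes). Tecta, a tectorial membrane protein, had a log2 change of -0.09.

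Among inhibitors of cyclin-dependent kinases, Cdkn1a (p21) was at 34.1 to 55.3 CPM in experiment 1 and 45.6 to 114 CPM in experiment 2, a log2 change of 0.70 ± 0.16 (SE, edgeR adjusted p = 0.00266). Cdkn1c (p57) went down, from 192 to 424 CPM to 137 to 202 CPM, a log2 change of -0.75 ± 0.16. Cdkn1b (p27), which marks cell cycle exit in the prosensory domain, had a log2 change of 0.16 ± 0.15. The 3 members thus did not share a direction.

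Of 10 tested Notch pathway genes 5 were called higher (50%, against 14.1% of all genes) and 0 lower. All 10 had a positive change in TRAP, and the median was 0.53. In pre-TRAP 2 of 9 were called higher (22.2%, against 9.74% of all genes) and 0 lower. There 7 had a positive change, and the changes ran from -0.31 to 2.41. The mean log2 level of the list was 2.30 to 2.62 in experiment 1 and 2.81 to 3.12 in experiment 2, without overlap. The median was 0.57 without libraries 3, 4, 5 and 6.

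By role, the receptor Notch3 was at 3.13 to 6.44 CPM in experiment 1 and 6.11 to 8.81 CPM in experiment 2, a log2 change of 0.73 ± 0.16 (SE, edgeR adjusted p = 0.00234). Notch1 and Notch2 had changes of 0.38 and 0.41 and did not pass. The ligand-like Dll3 rose by 2.00 ± 0.36 from a level of 0.126 to 0.615 CPM. The ligands Dll1 (0.24) and Jag2 (0.50) did not pass. Among the targets, the repressor Hes1 rose by 0.56 ± 0.14, Hes6, an antagonist of Hes1, by 0.73 ± 0.17 and Nrarp, a feedback inhibitor, by 1.86 ± 0.47. Single genes of the list overlapped between the experiments, although the mean of the list did not.

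Of 12 FGF response genes 3 rose (25%, against 14.1% of all genes), 0 fell and 9 were not called, with a median log2 change of 0.33. Etv4, an ETS factor induced by FGF, rose by 0.52 ± 0.14, the inhibitor Spred2 by 0.77 ± 0.20 and Ccnd1, cyclin D1, by 0.63 ± 0.11. Fgf20 itself was at 2.34 to 4.44 CPM in experiment 1 and 0.836 to 6.13 CPM in experiment 2, and the log2 change was -0.13 ± 0.22 (SE, edgeR adjusted p = 0.719).

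Immediate early genes, which respond within minutes to handling, were called for 3 of 12 (25%), all higher, where 14.1% of all genes were. Ier2 was at 10.9 to 29.1 CPM in experiment 1 and 30.2 to 41.8 CPM in experiment 2, without overlap, with a log2 change of 0.87 ± 0.18 (SE, edgeR adjusted p = 0.000906). Jun and Junb rose by 0.71 and 1.20. Fos and Egr1 had changes of 1.03 ± 0.53 and -0.15 ± 0.24 and did not pass. Of 9 heat shock genes, Hspd1 and Hspa8 fell by 0.60 and 0.63 (22.2%, against 8.81% of all genes) and 0 rose. Vegfa and Egln3, both targets of hypoxia, rose by 0.81 and 0.97 among 10 such genes (20%, against 14.1% of all genes).

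**Figure D5:**
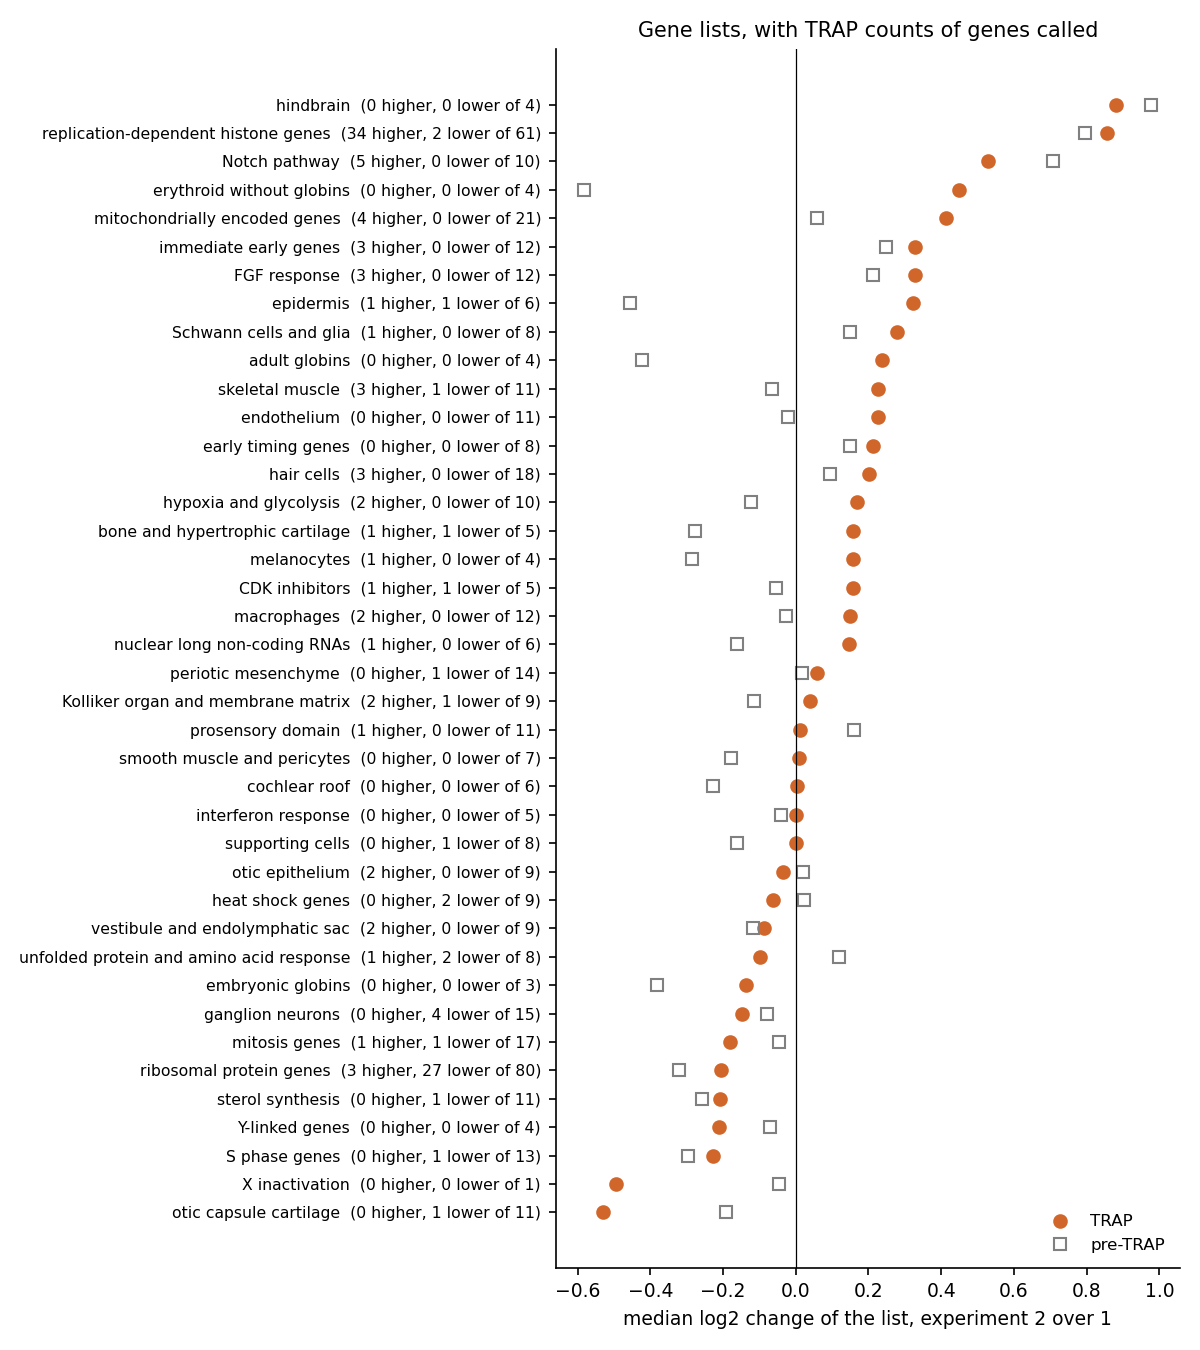
Median log2 change between experiments (x axis) of each gene list (y axis), in TRAP (circles) and pre-TRAP (squares), with the number of TRAP genes called beside each name. Histone genes (0.86 in TRAP) and Notch genes (0.53) lie to the right in both methods with 4 uncalled hindbrain genes (0.88), and otic capsule cartilage (-0.53) lies farthest to the left in TRAP.

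Markers of mesenchyme and cartilage around the duct bear on the dissection, although fewer cells of a type and less RNA per cell cannot be told apart. Both lists were depleted by TRAP, so dissection and purification cannot be told apart in their TRAP levels. In pre-TRAP the mean log2 level of the mesenchyme list was 5.64 to 6.01 in experiment 1 and 5.68 to 6.11 in experiment 2. That of the cartilage list was 7.12 to 7.58 and 6.86 to 7.68. Their median log2 changes there were 0.02 and -0.19. In TRAP, of 14 periotic mesenchyme genes 0 rose and 1 fell (7.14%, against 8.81% of all genes), with a median log2 change of 0.06. The fall was the proteoglycan Lum, by 0.72 ± 0.19. The mean log2 level of the list was 3.24 to 4.86 in experiment 1 and 3.66 to 4.75 in experiment 2. Of 11 cartilage genes 1 was called, Cnmd (9.09%, against 8.81% of all genes called lower), yet 10 had a negative change and the median was -0.53. This median was -0.19 without libraries 3, 4, 5 and 6. It was -0.05 without library 6 alone, -0.29 without library 5 and -0.85 without library 3. Col2a1, the main cartilage collagen, was at 255 to 4018 CPM in experiment 1 and 245 to 1978 CPM in experiment 2, with a log2 change of -1.22 ± 0.65 (SE, edgeR adjusted p = 0.19).

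Of 15 tested ganglion neuron genes 4 fell (26.7%, against 8.81% of all genes) and 0 rose, with a median of -0.15. This list was enriched by TRAP (median log2 enrichment 2.50 in experiment 1 and 2.33 in experiment 2), where mesenchyme and cartilage were depleted. Its TRAP level is thus not a measure of how much surrounding tissue entered the dissection. Tubb3, a neuronal tubulin, was at 781 to 1106 CPM in experiment 1 and 490 to 793 CPM in experiment 2, a log2 change of -0.51 ± 0.11 (SE, edgeR adjusted p = 0.00127). The transcription factor Pou4f1 fell by 0.54, Nefl, a neurofilament, by 0.35 and Snap25, of the synaptic fusion machinery, by 0.40. The list median was 0.02 in mut libraries alone and -0.27 in het libraries alone. None of 11 endothelial and 6 cochlear roof genes passed, against 14.1% higher and 8.81% lower of all genes. The endothelial genes had a median log2 change of 0.23, with 9 positive, and the roof genes 0.003, with 3 positive. Of 9 tested vestibular genes Hmx2 and Hmx3 rose (22.2%, against 14.1% of all genes) and 0 fell. Of these 9 genes 4 had a positive change, and the list median was -0.09.

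The purification was measured by comparing the change in TRAP with that in pre-TRAP. Across the 20437 genes tested in both, log2 changes had a Pearson r of 0.88 and a Spearman rho of 0.72, as a description over genes, which are not independent. Of the TRAP rises among them, 60.1% were also called higher in pre-TRAP, which was 80.6% of the pre-TRAP rises. Of the TRAP falls 34.2% were shared, which was 60.7% of the pre-TRAP falls, and 1 gene was called in opposite directions. Labels do not say whether a TRAP and a pre-TRAP library came from the same pool of embryos.

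The difference between methods in the size of the experiment effect was called for 9 of 24242 genes (0.0371%), with 1107 at an unadjusted p under 0.05. DESeq2 called 34 higher and 11 lower, and limma voom 34 and 15. None of the 40 gene lists, which hold 545 genes of the table, had a member among the 9. At a share of 0.0371% few or none would be looked for, so this says little about the lists. Eif4b, a cofactor of the translation helicase eIF4A, was the 1 gene of this comparison that met the naming rule. In TRAP it was at 128 CPM at the lowest, 142 at the median and 187 at the highest in experiment 1, and at 1003 CPM, 1175 and 1364 in experiment 2. In pre-TRAP it went from 209 to 278 CPM to 776 to 1083 CPM. The log2 changes were 3.01 ± 0.12 and 1.84 ± 0.16, and their difference was 1.13 ± 0.18 in the joint fit (SE, edgeR adjusted p = 0.0118). The call was lost without pre-TRAP library 18, 20 or 23.

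The enrichment of the 40 lists in TRAP over pre-TRAP was compared between experiments by their medians, without a test. By more than 0.5 on the log2 scale, 8 lists had a higher median in experiment 2 and 1, the immediate early genes, a lower one (-0.36 and -0.87). Separate medians can move without a like change in single genes. Gene by gene, the TRAP change minus the pre-TRAP change had a median of -0.07 for immediate early genes (6 of 14 positive). Among the 8 it was 0.13 for early timing genes, 0.27 for epidermis, 0.38 for bone and 0.46 for melanocytes. It was 0.56 for embryonic globins, 0.60 for adult globins and hindbrain, and 1.19 for erythroid genes without globins. For ganglion neurons the median log2 enrichment was 2.50 in experiment 1 and 2.33 in experiment 2, and for hair cells 2.09 and 2.39. For the prosensory domain it was 1.64 and 1.48. Of the 28 lists with a median below 0 in experiment 1, 19 had a higher median in experiment 2 and 9 a lower one. A higher median need not mean less depletion gene by gene. In periotic mesenchyme the gene-by-gene difference had a median of -0.13, with 4 of 14 genes positive. For endothelium it was 0.13 (9 of 11 positive) and for macrophages 0.02 (6 of 12 positive). The differences between the medians of the 2 experiments were small for periotic mesenchyme (-2.19 and -2.03), endothelium (-2.34 and -2.28) and macrophages (-2.73 and -2.71). They were larger for erythroid genes without globins (-2.70 and -1.42), melanocytes (-2.72 and -1.86) and bone (-1.92 and -1.15). These 3 lists hold genes near 0 counts in TRAP, where 4 of 8 erythroid, 4 of 7 melanocyte and 5 of 8 bone genes passed the filter. The whole erythroid list summed to 1.85 to 4.31 CPM in TRAP of experiment 1 and 0.891 to 4.45 CPM in experiment 2. Epidermis stood at -0.87 and -0.28, embryonic globins at -2.90 and -2.34 and adult globins at -3.78 and -3.19. Cartilage went the other way, from -1.59 to -1.84. Mitochondrially encoded RNA, which cytosolic ribosomes do not translate, stood at -5.20 and -4.87, and its share of TRAP counts was 0.00643% to 0.0373% in experiment 1 and 0.00728% to 0.0475% in experiment 2 (exact permutation test, adjusted p = 0.395). Among 21 such genes 4 were higher in TRAP (19.0%, against 14.1% of all genes). Of these, 3 encode tRNAs and the other is mt-Nd3, a subunit of complex I.

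Whether the loss of Fgf20 had a different effect in each experiment was tested as an interaction over the 16 TRAP libraries. It was called for 0 of 21577 genes (0.0%) in edgeR, DESeq2 and limma voom, with 455, 522 and 1431 at an unadjusted p under 0.05. Without the filter on low counts edgeR called 1. None of the 4 Y-linked genes passed between experiments, and Ddx3y, a Y-linked helicase, was at 0.395 to 30.5 CPM in experiment 1 and 0.764 to 26 CPM in experiment 2.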

How the data were processed

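RNA was measured in 24 libraries. The authors deposited raw counts, whole numbers of reads per Ensembl gene, with no normalization. Per the submitters' processing notes STAR, DESeq2 and GRCm38.p5 were used; their versions, the counting tool and the strand setting were not stated. Of 53946 genes in the table, 10068 had no count. Names came from a table of Ensembl identifiers, and RNA classes, gene spans and promoters from RefSeq (GRCm38.p6) by current or older symbol. The 28 pairs of libraries within a group differed by more than counting error (chi-square per degree of freedom 23.8 to 165.3).

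Experiment 2 against 1 was tested with edgeR 4.0.16 under R 4.3.3, using TMM scaling, filterByExpr at a minimum count of 10, genotype as covariate and quasi-likelihood F tests. The threshold was 0.05 after Benjamini-Hochberg adjustment. Pre-TRAP libraries were fitted likewise, and interactions with method (24 libraries) and genotype (16) were added. SE is the log2 change over the square root of F. CPM were TMM-scaled, and list levels are means of log2(CPM + 0.5). Library measures were compared by exact permutation within genotype, adjusted over 8 measures per method. Gene lists were described, not tested. Scripts were tested on simulated counts.

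Alternatives were DESeq2 1.42.0, limma 3.58.1 voom, other scaling, filters, covariates and subsets. Protein-coding genes alone and genes at equal depth were added after seeing the data. Members and lists were chosen with earlier results of these data known. Named genes were up to 12 rises and 12 falls (5 in other comparisons) of largest log2 change among called genes averaging 2 CPM or more whose het and mut libraries alone gave 1 sign, leaving out unnamed models and pseudogenes. The sign condition was not used for interactions. List members, Fgf20, Rpl13 with its copy and Rpl3-ps1 were named beside them, the last 3 after their values were seen. Some genes that the rule or a list takes in are not reported here by name, and they stay in the counts.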

Additional observations from a re-analysis of the deposited data

Results flagged for a closer look

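In 160 groups of 4 or 8 libraries examined for a library far from the rest, 10 had one, where chance gives about 1 in 20. In TRAP of experiment 1, library 5 was highest in log2(CPM + 0.5) of Fga (0.16, next -0.27) and lowest in the early timing genes (3.99, next 4.34). Library 9 was highest in immediate early genes (1.82, next 1.61) and lowest in X inactivation genes (-0.76, next 0.33), and library 12 was lowest in Y-linked genes (-0.71, next 1.96). In TRAP of experiment 2, library 14 was highest in Slc22a19 (3.61, next 3.21), library 1 lowest in skeletal muscle genes (0.81, next 1.09) and library 11 highest in hypoxia and glycolysis genes (3.52, next 3.39). In pre-TRAP of experiment 2, library 18 had the lowest histone share (0.152%, next 0.24%) and library 17 the lowest embryonic globin share of globin counts (5.98%, next 8.55%).

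The experiment effect differed between TRAP and pre-TRAP, by the interaction test in edgeR, for 9 genes, given here as the log2 change in TRAP minus that in pre-TRAP. Positive differences were found for Car5a (6.06), Gm43323 (4.84), Gm42913 (4.32), Ccr7 (4.31), Gm38384 (4.22), 1110003F10Rik (3.37) and Eif4b (1.13). Negative differences were found for 5330413P13Rik (-3.30) and Gm15266 (-2.26). Ccr7, a chemokine receptor, had 0 to 1 counts per TRAP library in experiment 1 and 56 to 196 in experiment 2, against 5 to 11 and 38 to 63 in pre-TRAP. Car5a, a mitochondrial carbonic anhydrase, had 0 to 1 and 4 to 26 counts in TRAP and 1 to 7 and 0 to 4 in pre-TRAP. Gm15266 had 1068 to 3866 counts in TRAP of experiment 1 and 230 to 522 in experiment 2, against 1068 to 1346 and 656 to 1151 in pre-TRAP.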

How the results depend on the processing

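No paired analysis was possible because the library numbers are unique and pair no samples across groups. The TRAP counts of 3051 higher and 1901 lower genes became 1456 and 870 in protein-coding genes alone and 1012 and 162 in het libraries alone. In mut libraries alone 897 were lower, and with the neuron level as a covariate 3712 were lower. Leaving out each TRAP library gave 2690 to 3581 higher and 1458 to 2505 lower. The pre-TRAP counts of 2139 and 1092 became 849 and 389 in protein-coding genes alone, and limma voom called 1907 lower. Leaving out each pre-TRAP library gave 1516 to 3177 higher and 479 to 1748 lower. The lower count was 568 without library 17, 498 without 18, 1748 without 19, 479 without 20, 698 without 21, 601 without 22 and 570 without 24. For the difference between methods (7 higher, 2 lower), no filter gave 24 and 15, DESeq2 34 and 11, limma voom 34 and 15, protein-coding genes alone 3 and 0, and leaving out a library 3 to 9 and 0 to 4. The higher count was 3 without library 18, 20 or 23 and 4 without 24. The genotype by experiment count of 0 higher became 1 with no filter and 0 without each library. Permuted without genotype strata, 6 pre-TRAP measures passed (exact permutation test, adjusted p = 0.0381), with differences of -11445700 in total counts, 1836 genes detected, 0.177 in TMM factor, -0.982 in ribosomal protein share, 0.189 in histone share and -2.15 in the share of the 10 highest genes (shares in percentage points). Of the others, not called, the mitochondrial difference in pre-TRAP ranged from -0.0723 to 0.0568 and the embryonic globin difference from -2.09 to 0.0842 as each library was left out. TRAP list medians moved most often for hindbrain and melanocytes (13 settings each), erythroid genes without globins (8) and bone (6). As each library was left out, the median ranged from -0.85 to -0.05 for cartilage, -0.21 to -0.09 for ganglion neurons, 0.09 to 0.27 for hair cells, 0.07 to 0.27 for early timing genes and 0.49 to 0.64 for Notch genes. Among named genes 866 alternative values kept the call and 21 did not, with 0 reversed. Depth limits genes near 0 counts, where 1 count moves a fold change.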
